A study of Mus musculus with 16 samples.

Results

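The ubiquitin-specific peptidases (Usp) are the most numerous class of deubiquitinating enzymes, and their transcripts were measured in the gastrocnemius, a calf muscle, of mice with cancer cachexia. Members were all genes of the deposited table whose symbol starts with Usp followed by a digit, without the Y-linked Usp9y, which gave 55 of 21923 genes. Of these, 46 passed the filter on low counts and were tested in the comparison of CAC vs. NOR, 45 in that of AM vs. CAC and 46 in every other comparison. Usp6nl fits the symbol rule but encodes a GTPase-activating protein of Rab proteins rather than a peptidase, and it was kept because the rule takes it.

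RNA-seq was performed on 16 libraries, 4 in each group. NOR mice were injected with PBS and bore no tumor, CAC mice bore a tumor and received PBS, AM mice bore a tumor and received 2 mg/kg amiloride daily, and KD mice bore a tumor grown from cells with a Rab27 knock-down and received PBS. Tumor cells were placed under the skin on day 0, injections started on day 9, and muscle was taken on day 30 from mice that were 6 to 8 weeks old when obtained. Replicates 1 and 2 of each group were C57BL/6 mice, which carried LLC (Lewis lung carcinoma) cells where a tumor was given, and replicates 3 and 4 were BALB/c mice, spelled BABL/c in the labels, which carried CT26 (colon carcinoma) cells. Each library is taken here as 1 mouse. The strain and the tumor line changed together, so their parts in any difference cannot be told apart, and the knock-down was a property of the tumor cells (lentiviral shRNA against Rab27a and Rab27b) and not of the muscle.

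Ubiquitin is attached to proteins singly or as chains, and chains of certain linkages send a protein to the proteasome. Usp enzymes are cysteine proteases that cut ubiquitin off again, so they can spare a substrate, edit a signal or recycle ubiquitin, and many of them work at 1 place in the cell, such as the proteasome, the endosome, the mitochondrion or chromatin. In skeletal muscle the ubiquitin-proteasome system carries out much of the breakdown of contractile proteins during atrophy, and Usp14 at the proteasome and Usp19 in atrophying muscle are among the better known members.

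Libraries held 35913200 to 61032700 counts on genes (median 47350500, totals rounded to 6 digits), and replicates of a group differed far more than by counting alone (chi-square per degree of freedom of at least 66.6). The muscle markers were high in every library, from 58809 to 172383 CPM (counts scaled to library size with TMM normalization) in sum, with the lowest sum in CAC-3. KD-3 was the only library with 0 counts for the Y-linked genes (111 to 174 CPM in the others), and the labels list both sexes for BALB/c. The edgeR calls and unadjusted counts of the KD comparisons, and the log2 fold changes given for KD vs. CAC, are therefore also given without it. Counts from other tools, of separate groups and of strain interactions are given with it only. The summed markers of B cells ran from 0.422 to 354 CPM and were near 0 in NOR-1, CAC-1, CAC-4, KD-2 and KD-3, and Cd3e of T cells was at 0 in 5 libraries. Those of erythrocytes were higher in every CAC mouse (3646 to 8714 CPM) than in every NOR mouse (1002 to 1374 CPM), with 5 of 5 markers upregulated, and those of neutrophils rose from 3.74 to 31.7 CPM in NOR to 95.8 to 222 CPM in CAC, with 3 of 5 upregulated. Of the endothelial markers 2 of 5 were upregulated in CAC vs. NOR (sums of 917 to 1364 CPM in NOR and 1185 to 1620 CPM in CAC), of the muscle markers 1 of 8 (Des), and of the macrophage, adipocyte, B cell and T cell markers 0. In AM vs. CAC, Des was downregulated and none of the other markers of these cells was called. For B and T cells, the members past the FDR limit were also fitted with a score of their markers as a covariate, given below where it changed a call. The part of the other cells in the differences described below was not tested. In these bulk samples a smaller number of cells of a type and less RNA per cell cannot be told apart.

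Levels were compared between genes as FPKM, the deposited values per kilobase of transcript, scaled to library size. The family was broadly expressed, with 45 members at a mean of at least 1 CPM, 42 at a mean of at least 1 FPKM and 19 at a mean of at least 10 FPKM. Usp13 (86.9 ± 14.5 FPKM, SD, n = 16) and Usp2 (85.3 ± 33.5 FPKM) led, followed by Usp19 (51.6 ± 4.73 FPKM), Usp47 (48.1 ± 6.68 FPKM) and Usp5 (42.7 ± 4.70 FPKM), and these 5 together made up 43.5% of the summed FPKM of the family. Usp13 and Usp2 could not be ordered, since Usp13 was the higher in 10 of 16 libraries. Usp2 stood above Usp19 in 15 of 16, Usp19 above Usp47 in 11, Usp47 above Usp5 in 12, and Usp5 above Usp4, the next member, in all 16. Scaling by TMM in place of the deposited FPKM left the order of the top 5 as it was.

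Several of the leading members handle ubiquitin chains or have a form found in muscle. Usp5 takes apart free ubiquitin chains, Usp13 is its close relative, Usp47 is best known from DNA repair, and Usp2 follows the circadian clock in many tissues. At the other end, 5 members (Usp26, Usp17la, Usp17lb, Usp17lc and Usp17le) had 0 counts in all 16 libraries, and Usp17ld (0.00313 FPKM), Usp51 (0.0138 FPKM), Usp29 (0.0144 FPKM), Usp50 (0.0719 FPKM) and Usp44 (0.0925 FPKM) were close to it. The Usp17 genes are near-identical copies of each other, with 31 to 65.7% of their 31-base words found in other genes, so their counts are uncertain in any case.

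**Figure D1:**
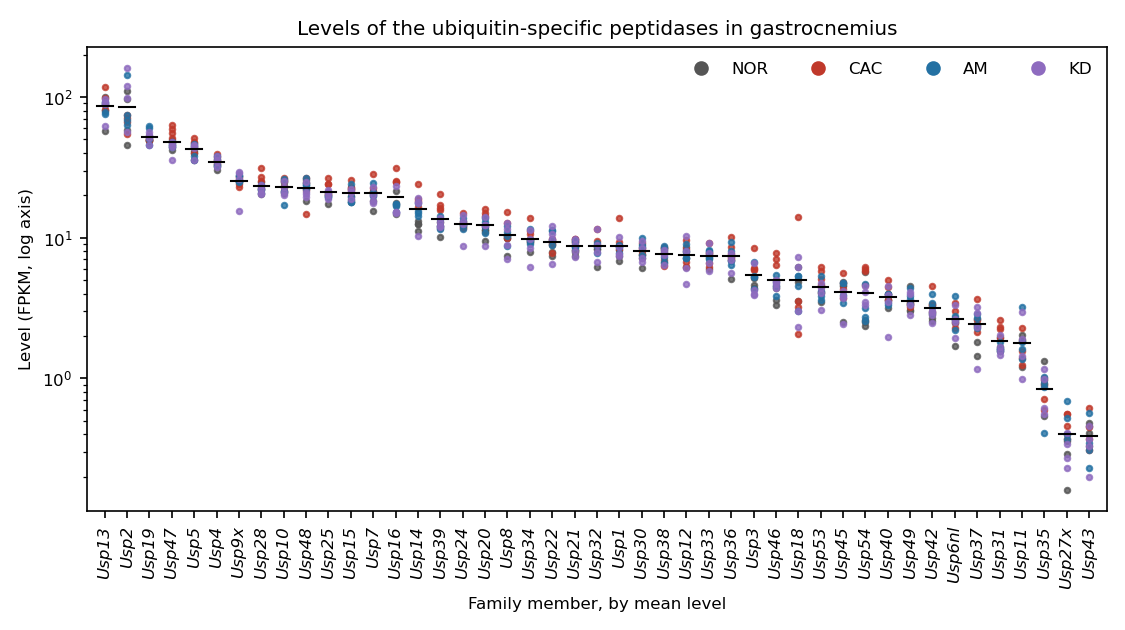
Level of each family member with a mean of at least 1 CPM in FPKM on a log axis, 1 point per library colored by group, with the mean over 16 libraries as a bar. Usp13 and Usp2 head the order near 86 FPKM, and Usp27x and Usp43 close the order near 0.4 FPKM.

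Pairs of related members were unequal in this muscle. Usp13 exceeded Usp5 in 16 of 16 libraries (Usp5 at 0.491 times Usp13), and Usp4 exceeded Usp15 in 16 of 16 (1.67 times) and Usp11 in 16 of 16 (19.4 times), these last being a trio that shares a DUSP domain. Usp22, the deubiquitinase of the SAGA coactivator, stood 23.5 times above Usp27x. The very large Usp9x stood 2.02 times above Usp24, and Usp16 stood 4.75 times above Usp45. Usp20, an enzyme of receptor trafficking, exceeded Usp33 in 16 of 16 libraries (1.66 times). Other pairs were closer, with Usp12 above Usp46 in 13 of 16 libraries (1.52 times), Usp53 above Usp54 in 12 of 16 (1.11 times) and Usp25 above Usp28 in 2 of 16 (0.899 times).

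Within a group, most members varied little between mice. Their median coefficient of variation between the 4 mice of a group was 11.2%, against 17.7% over 13210 genes, and it was lowest for Usp7 (4.59%), which acts on the p53 regulator Mdm2, and for Usp4 (5.60%). The most variable were Usp18 (41.7%), Usp2 (37.7%), Usp43 (34.5%) and Usp54 (30.2%).

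CAC vs. NOR asked what tumor-bearing did to the muscle, and in this comparison 4 members passed the false discovery rate (FDR) limit of 0.05, all of them upward. They were Usp46, which works with the WD-repeat proteins Wdr48 and Wdr20, Usp14, which trims chains on substrates at the proteasome, Usp16, which removes ubiquitin from histone H2A, and Usp39, a component of the spliceosome that lacks peptidase activity. Over all genes tested, 7.79% passed this limit upward and 6.17% downward. With the fold change limit of 1.5 that defines a DEG, Usp46 alone was upregulated (4.32% of all genes) and 0 members were downregulated (5.13% of all genes). DESeq2 likewise gave 1 member up (5.75% of all genes) and 0 down (7.41%).

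In NOR mice 1 to 4, Usp46 measured 13.1, 13.8, 10.8 and 14.3 CPM, and in CAC mice 1 to 4 it measured 21.4, 22.7, 19.9 and 15.1 CPM. Each CAC mouse was above each NOR mouse, although CAC-4 exceeded the highest NOR mouse by little. The log2 fold change was 0.60 ± 0.15 (SE; edgeR FDR = 0.0361, exact permutation p = 0.0286, the smallest that 4 against 4 can give), with 0.67 in C57BL/6 and 0.52 in BALB/c. The call rested on the full set of mice, since the FDR was 0.0599 to 0.0943 without any 1 library other than CAC-4, and 0.0152 without CAC-4. The call was also lost by limma-voom (0.58, FDR = 0.0447), with the replicate number as a block (FDR = 0.0771), in C57BL/6 alone (FDR = 0.156) and in BALB/c alone (FDR = 0.208). A strain alone means here the difference within that strain, in a fit that held the libraries of both.

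Usp16 measured 34.3, 43.3, 36.7 and 34.5 CPM in NOR mice 1 to 4 and 53.1, 51.4, 51.5 and 49.0 CPM in CAC mice 1 to 4. The CAC mice lay close together and entirely above the NOR mice. Its log2 fold change was 0.46 ± 0.09 (FDR = 0.0153), with 0.39 in C57BL/6 and 0.53 in BALB/c. With single mice left out, the FDR of Usp16 was above the limit without NOR-3 alone (0.0536), and it was also above with all 16 libraries in 1 fit (0.117), in C57BL/6 alone (0.162) and in BALB/c alone (0.0675).

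The values of Usp39 in the NOR mice were 25.9, 25.8, 27.5 and 28.7 CPM, and those in the CAC mice were 38.2, 38.5, 37.2 and 33.6 CPM. Every CAC mouse was above every NOR mouse. The log2 fold change was 0.45 ± 0.08 (FDR = 0.0117), and Usp39 kept an FDR of at most 0.0424 with any single mouse left out, but was above the limit in C57BL/6 alone (0.0882) and in BALB/c alone (0.128).

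For Usp14 the NOR mice read 27.6, 28.4, 27.7 and 27.0 CPM and the CAC mice 55.8, 36.6, 33.3 and 38.0 CPM. The groups were separate, with CAC-1 far above the other CAC mice. The log2 fold change was 0.56 ± 0.15 (FDR = 0.0440), and it was 0.38 without CAC-1 (FDR = 0.0451). Without any 1 of the 4 NOR mice, CAC-2 or CAC-4 the FDR was above the limit (0.0606 to 0.109), and without CAC-3 it was 0.0339. It was also above the limit with the replicate number as a block (0.0592), with all 16 libraries in 1 fit (0.128), in C57BL/6 alone (0.143), in BALB/c alone (0.278) and with the lymphocyte score as a covariate (0.46, FDR = 0.0549). On the opposite strand, exons of Thoc1 cover 26.0% of the exonic bases of Usp14, and since strandedness of the counts is not given, reads of the 2 genes cannot be told apart there. Thoc1 itself had 14.6 to 19.9 CPM in NOR and 18.4 to 21.5 CPM in CAC (log2 fold change 0.27 ± 0.11, FDR = 0.163).

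**Figure D2:**
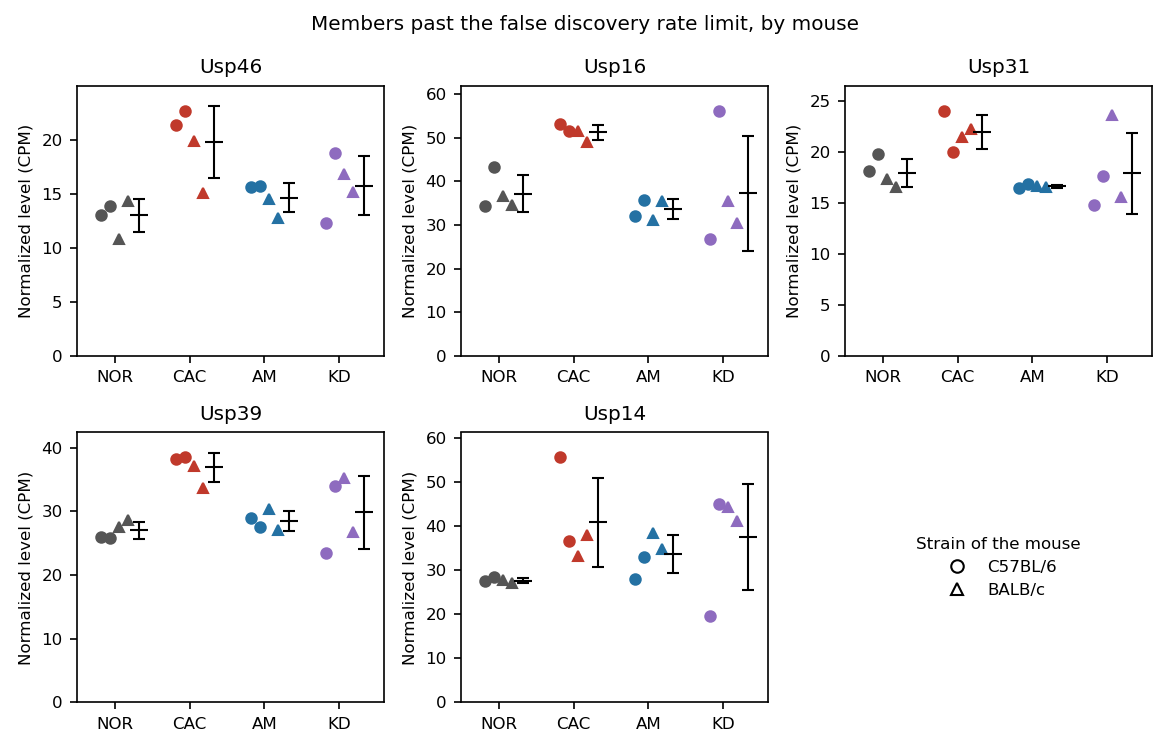
TMM-normalized CPM of the 5 members past the FDR limit in CAC vs. NOR or AM vs. CAC, with 1 point per mouse (circles C57BL/6, triangles BALB/c) and bars for the group mean ± SD of 4 mice. Usp16 shows the 4 CAC mice between 49.0 and 53.1 CPM, above every NOR and AM mouse, while KD-2 at 56.2 CPM is above them.

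With the 4 members past the FDR limit included, 12 members rose at an unadjusted p below 0.05, against 15.5% of all genes, and 0 fell, against 13.6%. The count of 12 was 7 without CAC-1, 8 without CAC-4 or NOR-2 and 9 to 10 without any other single mouse. The count of 0 was 2 without CAC-2, 1 without CAC-3 or NOR-2, 1 by DESeq2 and 3 in BALB/c alone. In 10 members (Usp3, Usp7, Usp8, Usp14, Usp16, Usp20, Usp31, Usp36, Usp39 and Usp46) every CAC mouse was above every NOR mouse, where 12.5% of all genes did so, and in 0 members every CAC mouse was below, where 10.8% of all genes did. Of the 46 members, 31 had a positive log2 fold change, as did 51.2% of all genes, and the median was 0.11 against 0.01 for all genes. Changes were small, with 6.52% of members and 22.6% of all genes at least 1.5-fold from equality.

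The largest differences by size did not all pass. Usp54, long classed with members that lack a complete active site, had 12.3, 11.3, 12.1 and 25.9 CPM in NOR and 29.6, 26.9, 17.0 and 26.0 CPM in CAC (log2 fold change 0.69 ± 0.29, FDR = 0.154). NOR-4 lay within the CAC range, and leaving it out gave a log2 fold change of 1.04 and an FDR of 0.0186. Usp27x, at about 1 CPM, had a log2 fold change of 0.58 ± 0.28 (FDR = 0.202). Downward, Usp35 had -0.33 ± 0.25, Usp2 had -0.31 ± 0.27 (FDR = 0.50) and Usp48 had -0.24 ± 0.13, none within the limit.

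By role, the 4 members past the FDR limit (7.79% of all genes upward) fell into 4 groups of 11. Usp14 was the only member past it among the 3 proteasome-bound and free-chain enzymes (median log2 fold change 0.10), and Usp46 among the 3 partners of Wdr48 (median 0.25). Of 11 chromatin and nuclear members tested, Usp16 alone passed (median 0.17). Among the 3 tested members that lack a complete or canonical active site, Usp39 alone passed (median 0.45). The 7 other roles included 0 calls. They were the endoplasmic reticulum, mitochondrion and muscle group (4 tested, median -0.01), endosome and trafficking (6, 0.14), the very large enzymes (5, 0.12), the less described members (4, -0.11), the DUSP-domain trio (3, 0.03), cell cycle and DNA damage (3, 0.09) and ISG15 (1, 0.03).

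Usp19, which has a form anchored in the endoplasmic reticulum, had 206, 168, 170 and 165 CPM in NOR and 179, 172, 137 and 166 CPM in CAC. The groups overlapped, and the log2 fold change of -0.13 ± 0.12 (FDR = 0.548) had an approximate interval of -0.37 to 0.12. Intervals here are a fixed multiple of the SE and somewhat narrower than a 95% interval. Usp25, known for a longer isoform in muscle, had a log2 fold change of 0.18 ± 0.12 (interval -0.06 to 0.41), and Usp30, which opposes the removal of mitochondria, had 0.11 ± 0.10 (interval -0.10 to 0.31). Usp9x, an essential deubiquitinase with many substrates, was not called, with 111 ± 6.77 CPM (SD, n = 4) in NOR and 97.4 ± 6.76 CPM in CAC (log2 fold change -0.19 ± 0.09, FDR = 0.200).

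**Figure D3:**
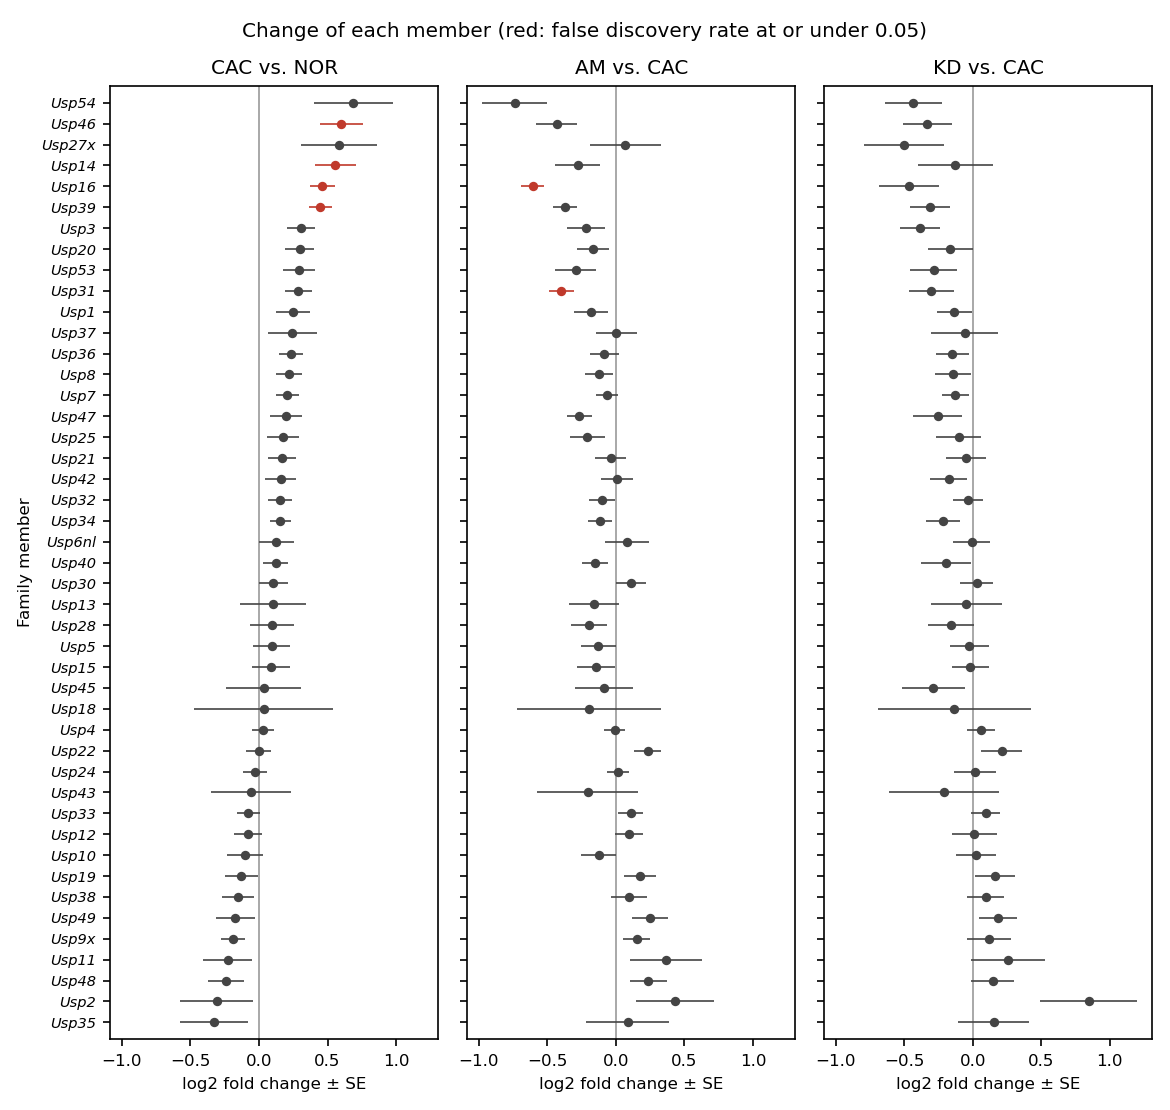
Log2 fold change ± SE of the 45 members with a mean of at least 1 CPM in the comparisons of CAC with NOR, AM with CAC and KD with CAC, ordered by the first, with an FDR of at most 0.05 in red. Usp46, Usp14, Usp16 and Usp39 are red in CAC vs. NOR, Usp16 and Usp31 in AM vs. CAC, and no member in KD vs. CAC.

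AM vs. CAC addressed the effect of amiloride in tumor-bearing mice, and it shares its CAC mice with the comparison above, so opposite signs in the 2 are partly built in. Here 2 members passed the FDR limit, Usp16 and Usp31, both downward (3.22% of all genes), and 0 passed it upward (1.76%). As DEGs, 1 member was downregulated, Usp16 (2.03% of all genes), and 0 were upregulated (1.63%). DESeq2 gave 2 down, Usp16 and Usp54 (3.35% of all genes), and 0 up (4.48%).

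In AM mice 1 to 4, Usp16 measured 32.1, 35.8, 31.2 and 35.4 CPM, all below the 49.0 to 53.1 CPM of the CAC mice and within or just under the 34.3 to 43.3 CPM of the NOR mice. The log2 fold change was -0.61 ± 0.08 (FDR = 0.00952, exact permutation p = 0.0286), with -0.60 in C57BL/6 and -0.61 in BALB/c. Without AM-3 the log2 fold change was -0.57 (FDR = 0.0350), under the fold change limit, and with any other mouse left out the call held. It was lost, at log2 fold changes of -0.60 to -0.61, with all 16 libraries in 1 fit (FDR = 0.0808), with the replicate number as a block (FDR = 0.132), in C57BL/6 alone (FDR = 0.130) and in BALB/c alone (FDR = 0.0661). With the block and in C57BL/6 alone, 0 of all genes were DEGs in this comparison. Against NOR, Usp16 in AM mice differed by -0.14 ± 0.10 (FDR = 0.660).

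Usp31, a little described member, had 24.0, 20.0, 21.5 and 22.2 CPM in the CAC mice and 16.5, 16.8, 16.6 and 16.6 CPM in the AM mice. The AM mice were almost equal and below every CAC mouse, and the NOR mice (16.5 to 19.8 CPM) overlapped the AM mice and stayed below the CAC mice. Its log2 fold change was -0.40 ± 0.09 (FDR = 0.0452), with -0.38 in C57BL/6 and -0.41 in BALB/c, and the FDR was 0.0697 to 0.132 with any 1 mouse left out. It was also above the limit with RLE size factors (0.0564), total counts (0.0763), no count filter (0.0657), strain (0.0812) or the lymphocyte score (0.0970) as a covariate, the replicate block (0.239), all 16 libraries in 1 fit (0.126), C57BL/6 alone (0.263) and BALB/c alone (0.187).

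Upstream sequences of the members are shown here because 2 that passed in AM vs. CAC, Usp16 and Usp31, are among the 4 members with an E-box (CACGTG) in the 250 bases before the RefSeq start. The E-box was picked out of the motifs searched after these calls were known, and its part in the changes was not tested. Promoter sequence came from RefSeq (GRCm38.p6) for 42 of 55 members. The E-box, which reads the same on both strands, was present in 4 of these 42 (9.52%) and in 5.93% of 27025 promoters. Each site is given with up to 12 bases on either side, the E-box in capitals. Counted from the RefSeq start, it lies 77 to 72 bases upstream in Usp16 (chr16:87454896-87454925, + strand), 22 to 17 in Usp31 (chr7:121707447-121707476, - strand), 7 to 2 in Usp4 (chr9:108347812-108347830, + strand) and 145 to 140 in Usp6nl (chr2:6322600-6322629, + strand). GENCODE places the start of Usp16 farther upstream, at 87454703, so by that annotation the site of Usp16 lies within the gene, while the other 3 lie upstream by both.
Usp16: cactgcagtgaaCACGTGgcgggcctccca
Usp31: atgccagcgagtCACGTGagctgcccactt
Usp4: gccgggcgcgcgCACGTGc
Usp6nl: gcgggaacagcgCACGTGccgccgggaagg

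Of these, Usp4 and Usp6nl did not pass any test, with log2 fold changes in AM vs. CAC of -0.01 ± 0.08 and 0.08 ± 0.16. The window of Usp31 (chr7:121707443-121707692, - strand, 58.4% G or C) is printed with its E-box in capitals, beside that of Usp46 (chr5:74068432-74068661, - strand, 76.5% G or C), the DEG of CAC vs. NOR, which was cut to the 230 bases outside its own exons and held none of the motifs searched.
Usp31: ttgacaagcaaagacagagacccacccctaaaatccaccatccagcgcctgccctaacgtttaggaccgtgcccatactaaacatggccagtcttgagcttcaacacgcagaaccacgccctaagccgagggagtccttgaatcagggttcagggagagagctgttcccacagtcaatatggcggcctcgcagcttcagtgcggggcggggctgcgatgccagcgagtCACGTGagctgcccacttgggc
Usp46: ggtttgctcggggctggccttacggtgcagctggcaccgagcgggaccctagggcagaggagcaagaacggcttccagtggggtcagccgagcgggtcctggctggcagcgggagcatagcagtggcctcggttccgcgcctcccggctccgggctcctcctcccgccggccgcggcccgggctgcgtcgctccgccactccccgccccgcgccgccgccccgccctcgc

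On both strands, the ETS motif (CCGGAAG) was in 7 of 42 member promoters (16.7%; 7.14% of all), the C/EBP motif (TTGCNNAA) in 5 (11.9%; 9.53%; Usp49 and 4 near-identical Usp17 copies with almost no counts), the NRF1 motif in 4 (9.52%; 3.77%) and the glucocorticoid response pattern (ACANNNTGT) in 4 (9.52%; 5.89%). Usp16 was among those with the ETS motif, 12 to 6 bases upstream of its RefSeq start. The D-box (TTANGTAA; 2.14% of all), the FoxO motif (GTAAACA; 3.12%) and the CRE (TGACGTCA; 1.56%) were in 0. Member promoters had a median G and C content of 64.4%, against 52.0% for all, so these shares are not matched for base composition.

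Other members moved the same way without passing. Usp39 had 28.9, 27.5, 30.4 and 27.1 CPM in AM mice, all below the CAC mice (log2 fold change -0.37 ± 0.09, FDR = 0.0506). Usp54 in AM mice ran from 10.6 to 21.5 CPM (-0.74 ± 0.24, FDR = 0.113), and Usp46 from 12.8 to 15.7 CPM (-0.43 ± 0.15, FDR = 0.145), the latter overlapping CAC-4. Usp14 had 28.1, 33, 38.6 and 34.9 CPM in AM mice, which overlap the CAC mice (-0.28 ± 0.16, FDR = 0.378), with -0.57 in C57BL/6 and 0.03 in BALB/c. Thoc1, whose exons overlap those of Usp14 on the other strand, had -0.46 ± 0.12 (edgeR FDR = 0.0743) in AM vs. CAC. In KD vs. CAC Thoc1 had -0.22 ± 0.17 (FDR = 0.685). Upward, Usp2 had 0.43 ± 0.29, Usp11 had 0.37 ± 0.27 and Usp49 had 0.25 ± 0.13, none within the limit.

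Across the family, 6 members had an unadjusted p below 0.05 with a fall (12.2% of all genes) and 1, Usp22, with a rise (9.47%). In 4 members (Usp16, Usp31, Usp39 and Usp47) every AM mouse was below every CAC mouse, where 9.27% of all genes did so, and in 0 every AM mouse was above (6.05%). The median log2 fold change was -0.10 over 45 members and 0.01 over all genes, and 28 of 45 members were negative, as were 7205 of all 14674 genes tested. The family took 0.224 to 0.239% of all counts in NOR, 0.255 to 0.287% in CAC, 0.226 to 0.270% in AM and 0.222 to 0.264% in KD. These are shares of unscaled counts, and the top 10 genes of a library took 21.3 to 25.5% in NOR and 13.9 to 22.1% in CAC. Scaled by total counts alone, CAC vs. NOR gave log2 medians of 0.24 for members and 0.14 for all genes. The rise under that scaling was thus not limited to the family. AM vs. CAC then gave -0.17 for members and -0.06 for all genes.

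KD vs. CAC tested the knock-down of Rab27, a GTPase pair needed for exosome release, in the tumor cells. By edgeR 0 members were upregulated (0% of all genes) and 0 downregulated (0.00685%), with or without the fold change limit. At an unadjusted p below 0.05 stood 1 member upward, Usp2 (0.85 ± 0.35, FDR = 0.425; 6.06% of all genes), and 1 downward, Usp3 (-0.38 ± 0.14, FDR = 0.379; 5.09%), and DESeq2 and limma-voom also called 0 members. The upward count was 0 without KD-4 or any single CAC mouse. The downward count was 0 without KD-4 or CAC-1, 2 without CAC-4 and 4 without KD-2. It was 5 with all 16 libraries in 1 fit or with the lymphocyte score, and 6 with total counts. Over all genes the tools differed, since DESeq2 called 230 genes up (1.61%) and 102 down (0.715%) and edgeR with all 16 libraries in 1 fit called 90 and 55. In 0 members did every KD mouse lie above every CAC mouse (3.71% of all genes) or below (3.58%).

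In the KD mice Usp16 measured 26.8, 56.2, 35.4 and 30.5 CPM, with KD-2 above all CAC mice and the other 3 below (log2 fold change -0.46 ± 0.22, FDR = 0.484). Usp14 measured 19.7, 45.0, 44.4 and 41.3 CPM, with KD-1 below every other library, and KD-1 was also the lowest library for Usp13 (199 CPM) and Usp47 (168 CPM). Usp46 measured 12.3, 18.7, 16.8 and 15.2 CPM (-0.33 ± 0.18), Usp27x had a log2 fold change of -0.50 ± 0.29, and Usp54 had -0.43 ± 0.21. Upward, after Usp2, stood Usp11 (0.26 ± 0.27) and Usp22 (0.21 ± 0.15), neither within the limit.

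Without KD-3, again 0 members were called, the unadjusted counts were 0 upward and 5 downward, and the median log2 fold change moved from -0.08 to -0.11. Usp16 then had -0.43 (FDR = 0.648), Usp46 -0.35 (FDR = 0.646), Usp54 -0.56 (FDR = 0.50), Usp14 -0.21 (FDR = 0.897), Usp2 0.56 (FDR = 0.655), Usp3 -0.35 (FDR = 0.562), Usp27x -0.47 (FDR = 0.716), Usp11 0.31 (FDR = 0.810) and Usp22 0.12 (FDR = 0.877).

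The 3 remaining comparisons, between AM and NOR, KD and NOR, and AM and KD, gave 0 DEGs among the members by edgeR and also 0 over all genes tested (14738, 14748 and 14745). DESeq2 called 0 members as well, and over all genes it called 50 up (0.34%) and 20 down (0.136%), 27 up (0.184%) and 4 down (0.0272%), and 0 up and 1 down (0.00681%), in this order. In AM vs. NOR 3 members had an unadjusted p below 0.05 (9.19% of all genes), namely Usp14 (0.29 ± 0.10, FDR = 0.527), Usp22 (0.24) and Usp30 (0.23). In KD vs. NOR there were 0 (3.54% of all genes), and in AM vs. KD also 0 (1.11%), and without KD-3 both again had 0. The count in AM vs. NOR was 1 without AM-1, AM-3, NOR-1 or NOR-2, 2 without AM-2 or NOR-3, 4 without AM-4 and 0 with the replicate block. That in KD vs. NOR was 3 without KD-1 and 1 without KD-2 or NOR-4, and that in AM vs. KD was 1 without AM-3 or KD-1 and with the replicate block.

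Each strain with its tumor line was also read separately, as the difference of 2 mice against 2. These differences came from 1 fit of strain by group on the 8 libraries, so the count filter, scaling and spread were shared by both strains. The interaction of strain and group reached the FDR limit in edgeR for 0 members whether CAC was compared with NOR, AM or KD (0% of all genes in each). With an unadjusted p below 0.05 there were, in this order, 2 of 46, 4 of 45 and 2 of 46 members, against 4.89%, 12.4% and 5.65% of all genes. By DESeq2, Usp2 was called in CAC vs. NOR (C57BL/6 minus BALB/c 1.37 ± 0.29 on the log2 scale, FDR = 0.000753) and Usp13 in AM vs. CAC (-0.88 ± 0.18, FDR = 0.000295), where this test called 0.852% and 3.21% of all genes. These counts are 1 of 46 and 1 of 45 members.

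Usp13 had 382, 433, 261 and 280 CPM in the CAC mice and 257, 282, 339 and 336 CPM in the AM mice. The C57BL/6 mice were lower with amiloride (-0.58) and the BALB/c mice higher (0.30; edgeR interaction, unadjusted p = 0.00232). For Usp25 the CAC mice had 122, 128, 93.5 and 92.8 CPM against 93.3 to 98.3 CPM in all NOR mice. Among the CAC mice only those of C57BL/6 with LLC tumors stood above the NOR mice (0.34, against -0.02 in BALB/c; edgeR interaction, unadjusted p = 0.0391). Usp54 differed by 1.22 in C57BL/6 and 0.21 in BALB/c between CAC and NOR, and by -1.27 and -0.25 in AM vs. CAC (edgeR interaction in the latter, unadjusted p = 0.0259).

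**Figure D4:**
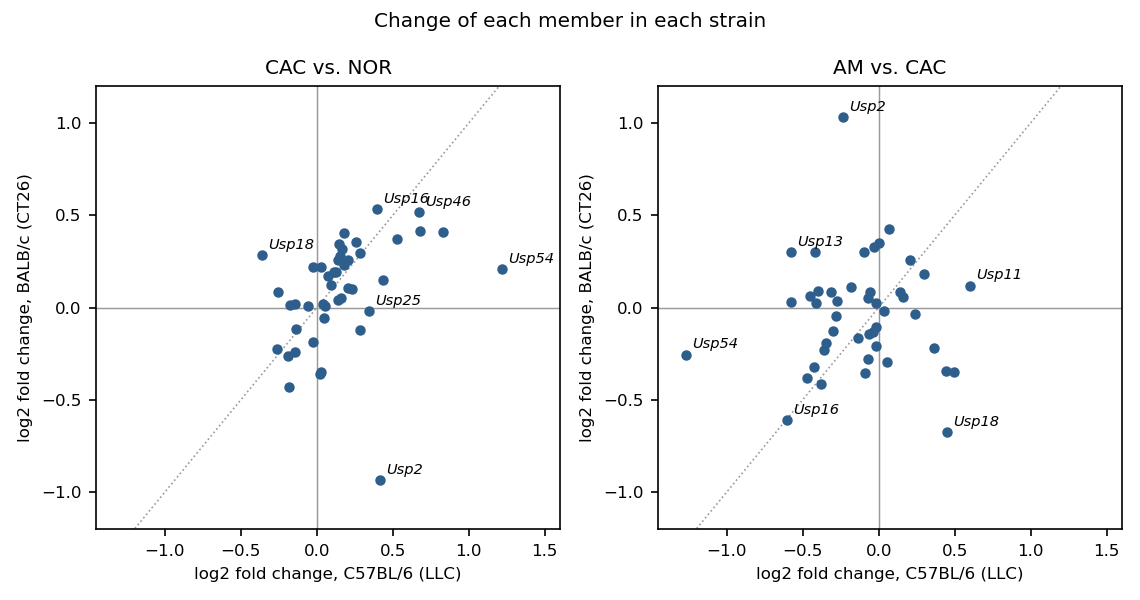
Log2 fold change of each member in C57BL/6 mice with LLC tumors (x axis) against that in BALB/c mice with CT26 tumors (y axis), for CAC vs. NOR and AM vs. CAC, each estimate from 2 mice against 2 and the dotted line marking equality. Usp16 lies near equality in both panels (0.39 and 0.53, then -0.60 and -0.61), while Usp2 lies on opposite sides of 0 (0.42 and -0.93, then -0.23 and 1.03).

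Usp2, the clock-linked member, was among the most abundant and the most variable. It measured 109, 121, 235 and 202 CPM in NOR, 156, 159, 92.4 and 131 CPM in CAC, 129, 135, 301 and 161 CPM in AM and 104, 242, 381 and 246 CPM in KD. The BALB/c mice held the extremes, with NOR-3, NOR-4, AM-3, KD-3 and KD-4 among the 6 highest libraries and CAC-3 the lowest of all. Between CAC and NOR it had 0.42 in C57BL/6 and -0.93 in BALB/c (edgeR interaction, unadjusted p = 0.00133), and in BALB/c alone it was called downregulated (FDR = 0.0402).

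Of the 9 clock genes read, those given here were chosen after their values were seen. Dbp, a clock-controlled transcription factor that binds the D-box, had 16.1, 26.2, 204 and 125 CPM in NOR, 20.7, 20.2, 6.16 and 17.3 CPM in CAC, 87.5, 108, 197 and 36.7 CPM in AM and 63.2, 60.3, 180 and 192 CPM in KD. Arntl, a core activator of the clock, was lowest in NOR-3 (8.96 CPM), NOR-4 (8.63 CPM), AM-3 (7.70 CPM), KD-3 (6.35 CPM) and KD-4 (4.71 CPM), which are 5 of the 6 libraries highest in Usp2, KD-2 (242 CPM) being the other. The 6 libraries highest in Usp2 were also the 6 highest in Per3 (29.4 to 64.5 CPM), and NOR-3, NOR-4, AM-3, KD-3 and KD-4 were the 5 highest in Tef (348 to 470 CPM) and in Nr1d2 (118 to 150 CPM). Per1 and Nr1d1 had another order. Per1, a repressor of the clock, had 12.1, 19.9, 60.4 and 93.0 CPM in NOR and 92.3 to 133 CPM in CAC. Nr1d1, which represses Arntl, was highest of all in NOR-1 (400 CPM), where Usp2 was near its lowest (109 CPM), and had 78.1 to 130 CPM in CAC. By edgeR Dbp had log2 fold changes of -2.52 ± 0.79 in CAC vs. NOR (FDR = 0.0688) and 2.74 ± 0.54 in AM vs. CAC (FDR = 0.0274). Of 9 clock genes, 0 were DEGs between CAC and NOR, and Dbp and Nr1d1 were upregulated in AM vs. CAC. The hour of sampling is not given in the sources used here, and the part of the clock genes in the values of Usp2 was not tested.

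Usp18, an interferon-induced protease that removes the ubiquitin-like ISG15, had 4.56, 5.41, 7.16 and 5.71 CPM in NOR and 4.24, 3.72, 12.9 and 2.21 CPM in CAC. CAC-3 alone was high, and the log2 fold change of 0.03 ± 0.51 became -0.75 without it. The 8 interferon-induced genes summed to 435 CPM in CAC-3 and to 76.8 to 162 CPM in the other 15 libraries, with 0 DEGs in CAC vs. NOR. In AM and KD mice Usp18 ran from 2.96 to 7.29 CPM.

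**Figure D5:**
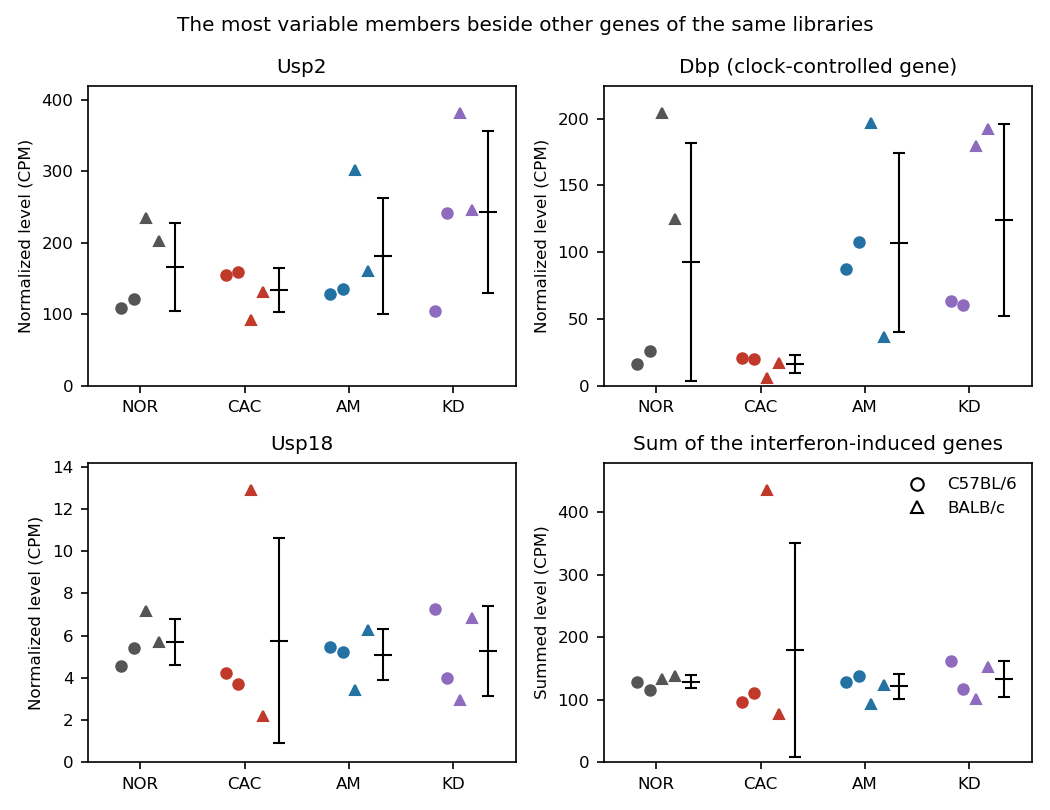
TMM-normalized CPM of Usp2, Dbp and Usp18 and the summed CPM of 8 interferon-induced genes, with 1 point per mouse (circles C57BL/6, triangles BALB/c) and bars for the group mean ± SD of 4 mice. CAC-3 is the highest library for Usp18 (12.9 CPM) and for the interferon genes (435 CPM), and the lowest for Usp2 (92.4 CPM) and Dbp (6.16 CPM).

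Deubiquitinases outside the family were read from a list of 34 genes, of which 33 were tested. In CAC vs. NOR, 1 was upregulated, Otulin, which cuts linear chains (from 16.8 to 26.6 CPM, log2 fold change 0.66 ± 0.14, FDR = 0.0174), and 1 was downregulated, Mpnd (from 49.0 to 31.1 CPM, -0.66 ± 0.09, FDR = 0.00520), where 4.32% of all genes rose and 5.13% fell. Without NOR-3 the upregulated count was 0, and without CAC-3 or CAC-4 it was 2. Total counts gave 3 up and 0 down, the replicate block 0 up, C57BL/6 alone 0 in either direction and BALB/c alone 1 up and 0 down. Psmd14, the deubiquitinase built into the proteasome lid, passed the FDR limit below the fold change limit (0.50, FDR = 0.0270), as did Zranb1 (0.49). The median of the list was 0.09. In AM vs. CAC 0 were upregulated and 3 were downregulated, namely Otud1 (-1.36 ± 0.29, FDR = 0.0347), Otulin (-0.65 ± 0.15, FDR = 0.0462) and Cops5, a subunit of the COP9 signalosome (-0.61 ± 0.11, FDR = 0.0208), against 2.03% of all genes downward, and the median was -0.16. This count was 1 without CAC-3, 3 without CAC-4 and 0 without any other single library. It was 2 with total counts or with strain or the lymphocyte score as a covariate, and 0 with the replicate block, with all 16 libraries in 1 fit and in either strain alone. With the block and in C57BL/6 alone, 0 of all genes were DEGs in AM vs. CAC. In KD vs. CAC 0 were called (median -0.15), as without KD-3 (median -0.16).

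Genes that work with the family were read from a list of 19 partners and ubiquitin genes. Of these, 6 were upregulated in CAC vs. NOR (4.32% of all genes) and 0 downregulated (5.13%), with a median log2 fold change of 0.39. The 4 proteasome subunits on which substrates, Usp14 or the deubiquitinase Uchl5 dock were all among them, with Psmd4 (a ubiquitin receptor) rising from 153 to 363 CPM (1.24 ± 0.09, FDR = 0.000878), Psmd2 from 259 to 523 CPM (1.01 ± 0.13), Adrm1 from 121 to 232 CPM (0.93 ± 0.09) and Psmd1 from 172 to 259 CPM (0.59 ± 0.11). The other 2 were the polyubiquitin gene Ubb (0.62 ± 0.16) and Ube2l6 (0.90 ± 0.18), the conjugating enzyme for ISG15. Wdr48 (0.16 ± 0.11) and Wdr20 (0.02 ± 0.10), the partners of Usp46, were not called.

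In AM vs. CAC 5 of the 19 were downregulated (2.03% of all genes) and 0 upregulated (1.63%). With the replicate block and in C57BL/6 alone, 0 of all genes, and so 0 partners, were DEGs in this comparison. Psmd4 fell to 174 CPM (-1.06 ± 0.10), Psmd2 to 280 CPM (-0.90 ± 0.12), Adrm1 to 132 CPM (-0.81 ± 0.09) and Psmd1 to 172 CPM (-0.59 ± 0.10), and Ubb fell as well (-0.74 ± 0.14). In KD vs. CAC 0 partners were called, with Psmd4 at -0.91 ± 0.24 (FDR = 0.268), and 0 without KD-3, with Psmd4 at -0.96 (FDR = 0.433). Beside them, Usp14 differed by 0.56, -0.28 and -0.13 in the 3 comparisons.

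By position (GENCODE M21, GRCm38), the 55 members lie on 16 chromosomes, with 9 on chromosome 7 and 5 each on chromosomes 9, 11 and X. The members called were at chr5:73998453-74068431 (Usp46, - strand), chr16:87454703-87483517 (Usp16, + strand), chr7:121642021-121707253 (Usp31, - strand) and chr6:72318678-72345184 (Usp39, - strand), apart from Usp14, whose overlap with Thoc1 is given above. Exons of 18 members overlap an exon on the other strand, and 14 members share more than 10% of their 31-base words with other genes, among them Usp49 (50.8%), Usp1 (31.6%), Usp33 (23.6%), Usp38 (21.3%) and Usp34 (13.1%), so their counts are less certain.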

How the data were processed

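Poly(A) RNA was sequenced on a HiSeq2500. The authors deposited a table with the raw counts per gene and the FPKM of 16 libraries. The submitters' processing notes name fastp, Bowtie2, HISAT2, StringTie 1.3.1 and the builds mm9 and GRCm38, without saying which step used which, and strandedness is not given in the sources used here. All columns were mapped to libraries by name, and the T libraries of the labels are called AM.

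Counts of all genes were tested in R 4.3.3 with edgeR 4.0.16 on the 8 libraries of the groups compared (TMM, filterByExpr with a minimum count of 10 and total of 15, quasi-likelihood F test, Benjamini-Hochberg FDR). A DEG needed an FDR within 0.05 together with a ratio of 1.5 or more, or 0.667 or less. The SE is the log2 fold change divided by the root of F. Single values were compared by two-sided exact permutation tests. FPKM served to compare genes and CPM to compare libraries. Log2 CPM used a prior count of 2. NOISeq, used in the study, was not used here. The test was tried on simulated counts first.

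Alternatives were RLE and total-count scaling, other count filters, DESeq2 1.42.0, limma-voom (limma 3.58.1), a covariate for strain or a block for the replicate number, 1 fit over the 16 libraries, each strain alone, each library left out, and no fold change limit. Each strain alone means the difference within that strain in 1 fit of strain by group on the 8 libraries, with the spread taken from both strains. A lymphocyte score (B and T cell markers) as a covariate was chosen after seeing the data. Other software was the R package data.table, version 1.17.8, and, for sequences and figures, Python 3.11.15, pandas 2.3.3 and matplotlib 3.10.9.

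The members, gene lists and tests were chosen with earlier results of these data known. Named members are those called or past the FDR limit, the 3 largest rises and falls per comparison among members with at least 1 CPM, the 5 highest by FPKM, Usp9x, Usp14, Usp18, Usp19, Usp25 and Usp30 by role, the related pairs, and called genes of the other lists. Any other gene was named after its values were seen. Identity between proteins of related pairs was not analysed here.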

Additional observations from a re-analysis of the deposited data

Results flagged for a closer look

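In groups of 4 mice, the gap between the value farthest out and its neighbour was divided by the range of the group on the log2 scale and set against Dixon's limit, for 30 members in 4 groups. Of the 120 groups, 5 held a value past the limit, and chance alone flags about 1 in 20 groups. Usp14 was low in KD-1, at 19.7 CPM against 41.3 to 45.0 CPM in the other KD mice. Usp19 was high in NOR-1, at 206 CPM against 165 to 170 CPM. Usp30 was low in AM-4, at 17.0 CPM against 19.2 to 19.6 CPM. Usp33 was high in AM-3, at 33.6 CPM against 29.6 to 30.0 CPM. Usp54 was high in NOR-4, at 25.9 CPM against 11.3 to 12.3 CPM.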

How the results depend on the processing

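The upregulated member count in CAC vs. NOR (1) was 2 with total counts as the only scaling (Usp14 joined), 0 with limma-voom, with the replicate block and in either strain alone, and 4 with no fold change limit, and BALB/c alone gave 1 downregulated member (Usp2). The downregulated count in AM vs. CAC (1) was 2 by DESeq2 (Usp54 joined), 0 with the replicate block, with all 16 libraries in 1 fit and in either strain alone, and 2 with no fold change limit. With the replicate block and in C57BL/6 alone, 0 of all genes were DEGs in AM vs. CAC, so these settings do not single out the members. Leaving out 1 library gave 0 to 1 in both, and 0 in the other counts. In CAC vs. NOR the member called was not the same each time. It was Usp46 without CAC-4, Usp14 without CAC-3 and Usp54 without NOR-4. The replicate numbers did not pair the mice (24 correlations of same-numbered mice from -0.66 to 0.63, 7 over 0.1), and under the block Usp46 had 0.59 (FDR = 0.0771) in CAC vs. NOR and Usp16 -0.61 (FDR = 0.132) in AM vs. CAC. The FDR count at any fold in CAC vs. NOR (4) was 6 by DESeq2, 3 with the lymphocyte score (Usp14 was lost), 2 with the block or all libraries in 1 fit, 0 upward in either strain alone, 1 without NOR-3, 2 without CAC-2, NOR-1 or NOR-2, and 3 to 4 without any other mouse. That in AM vs. CAC (2) was 5 by DESeq2, 3 with the filter at 1 CPM, 0 with the block, all libraries in 1 fit or either strain alone, 1 with RLE, total counts, no filter, strain or the lymphocyte score (Usp31 was lost) and 1 without any mouse other than CAC-4. DESeq2 called 1 strain interaction in CAC vs. NOR and 1 in AM vs. CAC, against 0.

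Total counts moved the median of members to 0.24 (CAC vs. NOR), to -0.17 for AM against CAC and to -0.20 for KD against CAC, and that of all genes to 0.14 and -0.11 in the first and last, and split the DEGs of CAC vs. NOR into 959 up and 619 down in place of 633 and 753. BALB/c alone gave a median of -0.02 in AM vs. CAC. In KD vs. CAC the median was -0.03 in BALB/c alone and -0.15 in C57BL/6 alone. With 1 library left out the medians ran from 0.11 to 0.16, -0.10 to -0.06 and -0.12 to -0.04. With the lymphocyte score the DEG counts were again 1 up and 1 down.

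Signs turned only for members whose FDR was above the limit, in 116 of 1800 values of 30 members under the alternatives. Those that moved by more than 1 SE are given. In CAC vs. NOR, total counts gave Usp12 0.051, Usp22 0.12, Usp24 0.10 and Usp33 0.050, BALB/c alone Usp12 0.087, Usp25 -0.018, Usp33 0.014 and Usp5 -0.12, C57BL/6 alone Usp2 0.42 and Usp49 0.023, and leaving out 1 mouse Usp18 -0.75 (CAC-3) to 0.31 (CAC-4). In AM vs. CAC, BALB/c alone gave Usp12 -0.032, Usp13 0.30, Usp14 0.028, Usp15 0.089, Usp25 0.061, Usp27x -0.34, Usp28 0.024, Usp35 -0.35, Usp45 0.30 and Usp5 0.085, C57BL/6 alone Usp18 0.45, Usp2 -0.23 and Usp9x -0.030, and leaving out 1 mouse Usp18 -0.47 (CAC-4) to 0.60 (CAC-3). In KD vs. CAC, BALB/c alone gave Usp13 0.41, Usp14 0.24, Usp20 0.17, Usp25 0.083 and Usp5 0.28, C57BL/6 alone Usp18 0.52, Usp19 -0.048, Usp24 -0.21 and Usp9x -0.15, total counts Usp33 -0.019 and Usp4 -0.057, and leaving out 1 mouse Usp18 -0.40 (CAC-4) to 0.66 (CAC-3). The cause was not tested. Within a strain 2 mice stand against 2.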
